A study of Mus musculus with 26 samples.

Results

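Gonads of mouse embryos labelled XY and taken at E13.5, an embryonic day at which the testis has just formed, were compared between a Meis1 knockout (Meis1 KO, 4 libraries) and wild type (WT, 3 libraries). These are 7 of the 26 libraries of the series, chosen by genotype label and held together in one deposited table of read counts per gene. No treatment was given in the labels, and the gonads had been dissected free of the mesonephros, the embryonic kidney that adjoins them. The labels give neither the Meis1 allele nor the strain, parents or litters, and they call the KO libraries biological replicates without saying whether embryos were pooled. The p-values therefore measure the spread between these samples, which may be partly technical. MEIS1 is a homeobox transcription factor of the TALE class, which binds DNA together with PBX and HOX proteins. It is known for its part in blood stem cell maintenance, megakaryocyte formation, heart and vessel development and the patterning of limbs. At this age the XY gonad holds Sertoli cells arranged in cords, germ cells inside the cords, and interstitial cells, fetal Leydig cells and vessels outside them. RNA of the whole gonad was measured, so fewer cells of a type and less RNA per cell cannot be told apart in any result.

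The libraries held 35468633 to 48497317 counts in WT and 41786926 to 51732897 in KO, and 16791 of 31053 genes passed the filter on low counts. The defining Sertoli gene Amh, encoding anti-Müllerian hormone, was at 1357 to 1806 counts-per-million (CPM) in WT and 915 to 1292 CPM in KO, in every library at a level that marks testis RNA. WT replicate 1 stood apart. It was the lowest or the highest of the 7 libraries at 57.8% of the genes tested, against 12.3 to 36.9% for the others, and the summed level of 14 germ-cell genes was 46.6 CPM in it against 994 and 1375 CPM in the other WT libraries and 487 to 909 CPM in KO. The main counts of genes are therefore also given without WT replicate 1. The libraries also differed in a way that followed the groups. Per-library deviations correlated with the GC content of the transcripts across 10728 genes at Spearman's rho of 0.01 to 0.32 in WT and −0.38 to −0.02 in KO, as a description over genes, which are not independent. The submitters' processing notes name featureCounts for the WT libraries and do not name it for KO, so the genotype and the set of libraries processed together cannot be told apart. Xist, the RNA of the inactive X chromosome of XX cells, had 3 to 12 counts in every library. Y-linked genes nevertheless differed between the groups.

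Meis1 (ENSMUSG00000020160, chromosome 11, 18879817 to 19018985 on the minus strand of GRCm38) was nearly absent from the KO libraries. WT replicates 1, 2 and 3 held 108.9, 62.1 and 64.2 CPM, and KO replicates 1 to 4 held 0.201, 0.695, 0.364 and 0.494 CPM. The 9 to 29 KO counts came against 2291 to 4030 in WT, with no overlap, and matched the labels in every library. The log2 fold change of KO over WT was −7.49 (SE 0.35, adjusted p 0.000179 by edgeR's quasi-likelihood test). Of the other TALE homeobox genes tested, which with Meis1 made 17 (Meis, Pbx, Pknox, Tgif, Irx and Mkx), none was called, where a call is an adjusted p under 0.05 over all genes tested and 1.8% of those were called. The paralogue Meis2 overlapped between the groups, at 67.0 to 105 CPM in WT and 70.8 to 103 CPM in KO (adjusted p 0.804), and differed by less than the spread between replicates.

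Besides Meis1 the clearest changes were a rise of Foxl2, the transcription factor that marks ovarian supporting cells, a rise of the peptide precursor genes Pdyn and Sct, and a fall of genes of heart muscle contraction. In all, 303 of 16791 genes were called (1.8%), 214 higher in KO (1.27%) and 89 lower (0.53%), and 80 of them changed by at least 1 on the log2 scale, 48 upwards and 32 downwards. None of the 303 overlapped between the groups, so a lack of overlap given for a called gene adds nothing to its call. Of all genes tested, 19.7% did not overlap. All 303 were called in the same direction without WT replicate 1, when the number rose to 2204 of 17072 genes (12.9%), 1084 higher (6.35%) and 1120 lower (6.56%). Leaving out any one of the other libraries reduced the calls to between 15 (KO replicate 2) and 27 (WT replicate 2). KO replicates 3, 1 and 4 left 17, 22 and 18 calls and WT replicate 3 left 18. 12 genes were called in every one of these 7 fits and also after an offset for GC content and transcript length in each library: Foxl2, Pdyn, Sct, Capn6 and Isoc2a higher, and Meis1, Myl2, Myh7, Myl3, Pln, Mybpc3 and Gm10800 lower. With the replicate number fitted as a block, 11 of the 12 stayed called. Gm10800, an unnamed transcript, is reported as uncertain.

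**Figure D1:**
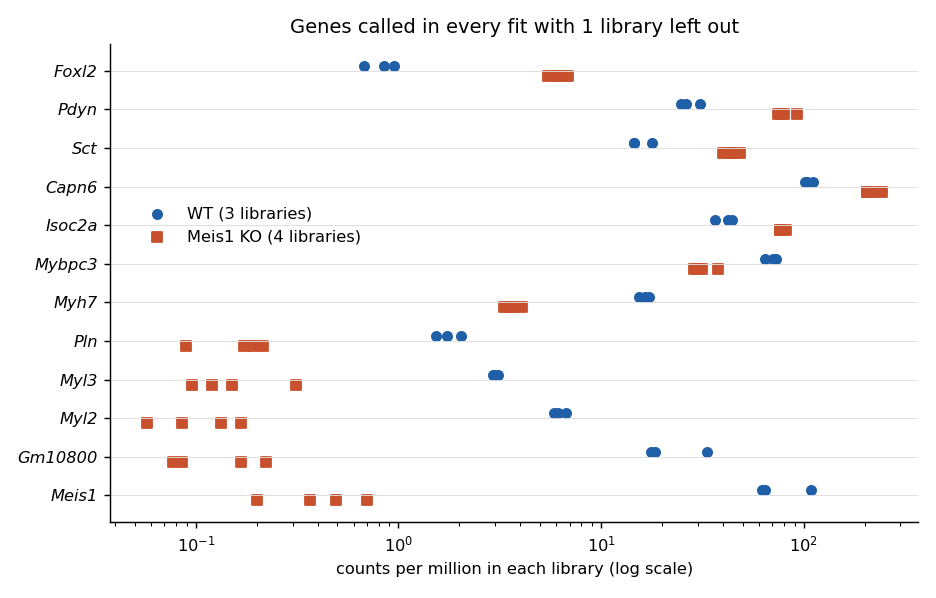
Level of the 12 genes called in every fit with 1 library left out, in CPM on a log axis; circles are the 3 WT libraries and squares the 4 Meis1 KO libraries. The groups do not overlap at any of the 12 genes, and Foxl2 sits between 0.672 and 0.946 in WT and between 5.46 and 6.86 in KO.

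The promoter windows of 3 of these genes are shown because the genes lead the rise and the fall: of the 12, Foxl2 and Pdyn rose most, and Myl2 fell most after Meis1 and the uncertain Gm10800. They come from RefSeq on GRCm38.p6, run from 250 bases before to 50 bases after an annotated start, and are written 5′ to 3′ on the gene's strand. Capitals mark TGACAG, the core letters of the MEIS recognition sequence, or its reverse complement CTGTCA.

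Foxl2 (chr9:98955357-98955656, plus strand): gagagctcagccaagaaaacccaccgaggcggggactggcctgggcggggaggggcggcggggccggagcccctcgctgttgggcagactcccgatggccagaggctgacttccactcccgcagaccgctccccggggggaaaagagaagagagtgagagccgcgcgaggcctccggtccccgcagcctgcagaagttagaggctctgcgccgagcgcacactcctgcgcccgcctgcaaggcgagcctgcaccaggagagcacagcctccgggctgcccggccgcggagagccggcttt
Pdyn (chr2:129698609-129698908, minus strand): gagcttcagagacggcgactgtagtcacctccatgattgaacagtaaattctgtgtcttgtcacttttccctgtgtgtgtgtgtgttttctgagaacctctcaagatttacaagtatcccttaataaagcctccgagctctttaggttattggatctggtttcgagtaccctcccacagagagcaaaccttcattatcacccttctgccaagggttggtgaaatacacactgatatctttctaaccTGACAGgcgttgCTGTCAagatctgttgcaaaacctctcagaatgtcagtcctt
Myl2 (chr5:122092474-122092773, plus strand): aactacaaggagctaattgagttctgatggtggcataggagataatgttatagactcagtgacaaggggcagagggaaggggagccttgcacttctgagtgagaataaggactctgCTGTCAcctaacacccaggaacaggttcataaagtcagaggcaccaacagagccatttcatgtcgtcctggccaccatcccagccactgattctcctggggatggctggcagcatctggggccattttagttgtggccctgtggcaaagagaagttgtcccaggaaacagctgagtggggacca

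The Foxl2 window holds neither form, the Pdyn window holds one of each, starting at bases 247 and 259 of the window, and the Myl2 window holds CTGTCA at base 117. Another annotated start of Pdyn has no match and another start of Myl2 has 1. Of the 12 genes called in every fit with 1 library left out, 11 had windows, and 3 of their 14 windows held a match. All 3 belong to Pdyn and Myl2, and no other gene of the 11 had a match. The starts are RefSeq's and can differ from those of the gene models counted. Neither Myl2 window covers the start of the counted gene, at base 122100951, since both end before it, at 122092773 and 122093238. The printed Pdyn window lies inside the counted gene, whose 5′ end is at base 129699844. The Pdyn window without a match, from base 129699889, is the one nearer to that end. Over all genes tested that matched the RefSeq table by symbol (12573 of 16787), 17.1% of 16029 windows held the letters on either strand. The share was 16.8% of 191 windows of genes called higher and 19.6% of 92 windows of genes called lower. Windows were matched for 162 of 214 and 64 of 89 called genes, under 80%, so the comparison of these shares is void. The match is a description of letters and says nothing of binding.

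Among the genes of the supporting-cell lineage, Foxl2 rose and 3 Sertoli-cell genes fell. Foxl2 (chromosome 9, plus strand) drives and maintains granulosa identity in the ovary and is near silent in a testis. It was at 0.946, 0.845 and 0.672 CPM in WT and 5.46, 6.86, 6.02 and 6.29 CPM in KO. All 4 KO libraries lay above all WT libraries, by 7.47 times in the fit (log2 fold change 2.90, SE 0.19, adjusted p 0.000753). In the deposited table of Fgf9 deletions, which was counted and normalized separately, Foxl2 was at 0.646 to 0.828 CPM in the same WT libraries. There it was at 36.3 to 86.8 CPM in the Δ306 deletion, 41.5 to 142 CPM in Δ93, 1.22 to 77.4 CPM in Δ104 and 0.328 to 7.26 CPM in Δ225. The KO range thus lay below those of Δ306 and Δ93 and inside those of Δ104 and Δ225. No other member of the 12 pre-granulosa genes was called, with a median log2 fold change of 0.05 beside 0.00 over all genes tested. Rspo1 and Bmp2, which encode secreted signals of the ovarian pathway, were called higher without WT replicate 1 (log2 fold changes 0.50 and 0.54, adjusted p 0.0304 and 0.0483), and Lef1 lower (−0.39, adjusted p 0.0249). The ovarian signal gene Wnt4 was at 32.1 to 76.2 CPM in WT and 46.6 to 73.1 CPM in KO and overlapped.

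The 16 Sertoli-cell genes had 14 negative fold changes, a median of −0.38 and 3 calls, all lower (0.53% of all genes were called lower). Sox10, a transcription factor related to Sox9, was at 38.7, 44.3 and 37.2 CPM in WT and 25.6, 21.4, 27.8 and 26.3 CPM in KO (log2 fold change −0.66, SE 0.11, adjusted p 0.0369). Mro, a gene of the male supporting lineage, was at 86.2, 73.1 and 62.7 CPM in WT and 46.2 to 51.9 CPM in KO (−0.63, adjusted p 0.0392). Col9a3, a collagen IX chain, was at 468 to 560 CPM in WT and 348 to 399 CPM in KO (−0.50, adjusted p 0.0425). None of the 3 overlapped between the groups. Without WT replicate 1 Dhh, Dmrt1, Sox8 and Ptgds joined them, which made 7 of 16 called lower (6.56% of all genes in that fit) and none higher. Dhh, the hedgehog ligand of Sertoli cells, was at 96.1 to 105 CPM in WT and 67.1 to 85.6 CPM in KO. Its fall is uncertain, because the table of Fgf9 deletions holds the same WT libraries at 62.3 to 75.8 CPM. That range overlaps the KO range given here. Ptgds, the prostaglandin D synthase that acts with Sox9, was at 133 to 140 CPM in WT and 93.9 to 116 CPM in KO. The testis-determining factor Sox9 itself was at 106, 109 and 111 CPM in WT and 101, 78.1, 100.1 and 101 CPM in KO, and was not called with 7 or with 6 libraries (adjusted p 0.345 and 0.232). Amh was not called either (log2 fold change −0.45, adjusted p 0.137).

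**Figure D2:**
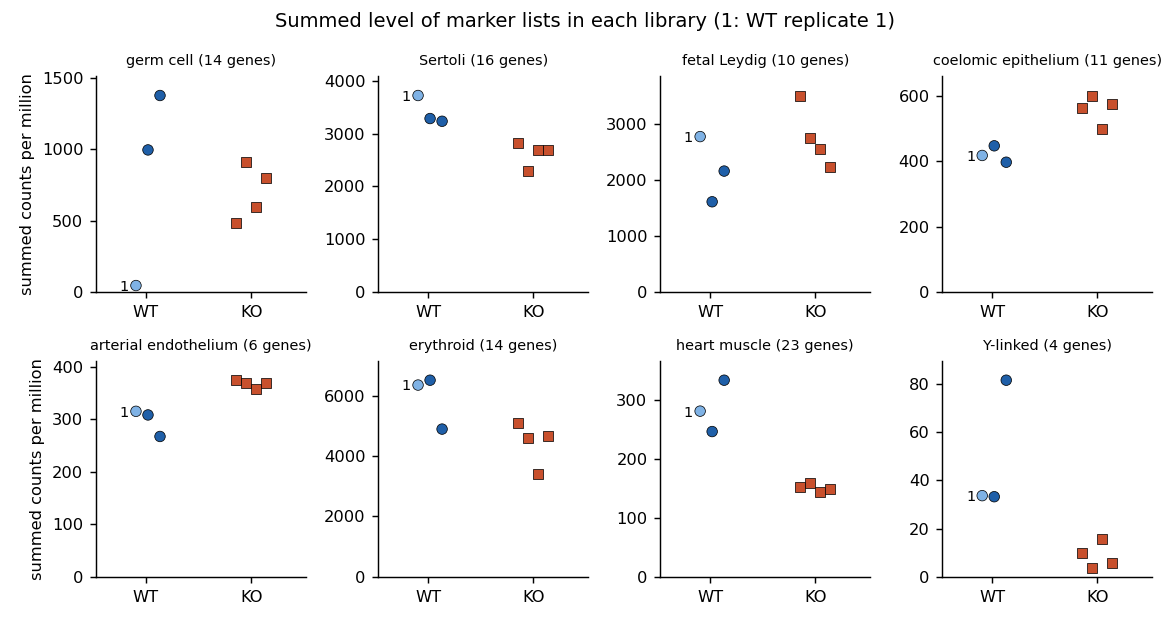
Summed level, in CPM, of 8 lists of marker genes in each library, with 3 WT circles (the pale one, marked 1, is WT replicate 1) and 4 Meis1 KO squares per panel. WT replicate 1 is far below the other 6 libraries for germ-cell genes, whereas the Sertoli, heart-muscle and Y-linked sums are lower, and the coelomic and arterial sums higher, in every KO library than in every WT library.

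The sum over the 16 Sertoli genes was 3232 to 3719 CPM in WT and 2297 to 2817 CPM in KO. Amh, which was not called, weighs most in it, with means of 1547 CPM in WT and 1130 CPM in KO. Col9a3 comes next, with means of 529 and 374 CPM. In the plot of summed levels this gap did not depend on WT replicate 1, which held the highest sum.

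The other genes that rose in every fit with 1 library left out were Pdyn, Sct, Capn6 and Isoc2a. Pdyn, encoding the opioid precursor prodynorphin, was at 24.8, 30.9 and 26.1 CPM in WT and 80.2, 92.8, 74.8 and 77.6 CPM in KO (log2 fold change 1.58, SE 0.11, adjusted p 0.00109). Sct, encoding the hormone secretin, was at 17.8, 14.6 and 14.6 CPM in WT and 39.8, 48.3, 44.7 and 43.6 CPM in KO (1.49, SE 0.11, adjusted p 0.00132). The fitted folds were 2.98 for Pdyn and 2.82 for Sct, and neither gene overlapped between the groups. Capn6, a calpain without protease activity that stabilizes microtubules, was at 102 to 111 CPM in WT and 205 to 242 CPM in KO (1.06, SE 0.08, adjusted p 0.00199). Isoc2a, an isochorismatase-domain gene, was at 36.4 to 44.3 CPM in WT and 76.1 to 82.1 CPM in KO (0.93, SE 0.08, adjusted p 0.00433). In the table of Fgf9 deletions, none of these 4 genes was higher in every library of the Δ225, Δ104 and Δ93 deletions than in every Δ306 library: Pdyn, for instance, was at 1.00 to 46.9 CPM in these 16 libraries and at 1.00 to 4.09 CPM in Δ306. Pdyn and Sct also differed between genotypes there. Pdyn was at 23.0 to 29.3 CPM in WT and 1.43 to 11.5 CPM in Δ93. Sct was at 13.7 to 16.6 CPM in WT, 3.14 to 5.09 CPM in Δ306 and 2.07 to 7.89 CPM in Δ93. For these genes the comparison therefore cannot show the part of the set of libraries, which was not tested. Lox, the lysyl oxidase that cross-links collagen and elastin, was at 41.6 to 55.9 CPM in WT and 86.7 to 103 CPM in KO (1.01, adjusted p 0.0153). Vstm5, encoding a membrane protein, was at 5.04 to 7.08 CPM in WT and 13.2 to 14.7 CPM in KO (1.2, adjusted p 0.0163). Cryaa, the lens chaperone alpha-A crystallin, had 1, 0 and 0 counts in WT and 41, 29, 41 and 31 counts in KO (adjusted p 0.00945), so that all but 1 of the reads came from KO libraries. Lox, Vstm5, Cryaa and the other genes named outside the rule for named genes were chosen after their values were seen.

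Of the genes of heart muscle, 13 fell, among them Myl2, Myh7, Myl3, Pln and Mybpc3. The heart-muscle list was written after these values had been seen, so its count describes and supports nothing. Of its 23 tested members, 13 were called lower and none higher (0.53% of all genes were called lower), with a median log2 fold change of −1.28 and 17 called lower of 24 without WT replicate 1 (6.56% of all genes). Myl2, the ventricular regulatory myosin light chain, was at 6.13, 6.68 and 5.85 CPM in WT and 0.134, 0.168, 0.0575 and 0.0859 CPM in KO (−5.80, SE 0.30, adjusted p 0.000179). Myh7, the slow cardiac myosin heavy chain, was at 15.4, 16.4 and 17.2 CPM in WT and 4.06, 3.52, 3.68 and 3.31 CPM in KO (−2.17, SE 0.12, adjusted p 0.000179). Neither gene overlapped between the groups, and the KO values of Myl2 rest on 3 to 7 counts per library. Myl3, the essential light chain that pairs with Myl2, was at 2.94 to 3.11 CPM in WT and 0.0959 to 0.312 CPM in KO (−4.13, adjusted p 0.00421). Pln, phospholamban, which restrains the calcium pump of cardiac muscle, was at 1.54 to 2.03 CPM in WT and 0.0891 to 0.215 CPM in KO (−3.38, adjusted p 0.00523). The size of the fall in Pln is uncertain, because the table of Fgf9 deletions holds the same WT libraries at 0.276 to 0.457 CPM, a WT mean 0.194 times that given here. For Nppa and Ankrd1 that ratio was 0.505 and 0.50. Mybpc3, the cardiac myosin-binding protein C, was at 72.5, 64.1 and 70.3 CPM in WT and 37.7, 30.1, 28.7 and 31.3 CPM in KO (−1.11, SE 0.10, adjusted p 0.00549). Its groups did not overlap. Tnnt2 (−2.14), Actc1 (−3.55), Nppa (−4.13), Ankrd1 (−2.36), Xirp1 (−2.28), Ldb3 (−1.26), Casq2 (−1.0) and Myh6 (−1.28), genes of the sarcomere, calcium store and stress response of heart muscle, were called as well, at adjusted p of 0.00619 to 0.0475. With the GC and length offset 10 of the 13 kept their call, and Ankrd1, Xirp1 and Myh6 did not (adjusted p 0.0566, 0.0512 and 0.0512). Myl7, Myl4, Smpx, Tnni1 and Ryr2 had log2 fold changes of −0.03 to 0.32 and were not called, so the fall did not take in every member.

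**Figure D3:**
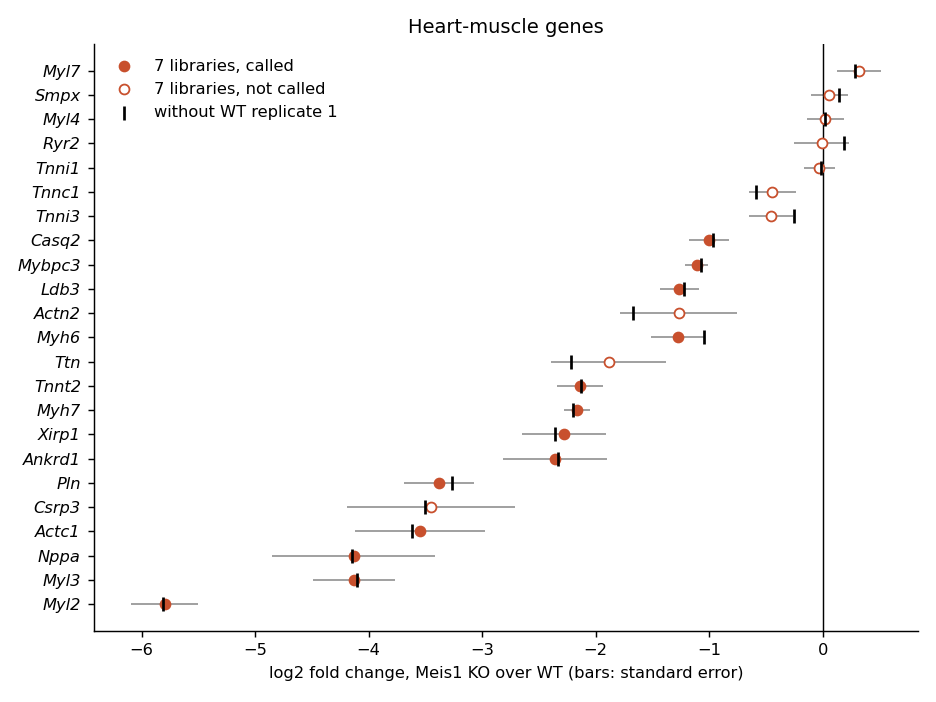
Log2 fold change of Meis1 KO over WT for the 23 tested heart-muscle genes with 7 libraries (circles, filled where called, with standard error bars) and without WT replicate 1 (vertical marks). The called members lie between −5.80 and −1.0, and each keeps its negative sign without WT replicate 1.

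Several of these genes also separated other libraries of the series. In the table of Fgf9 deletions, Myl2 was at 5.47 to 6.4 CPM in WT and 11.1 to 17.2 CPM in Δ306, against 0 to 5.77 CPM in all 16 libraries of Δ225, Δ104 and Δ93, which share the KO libraries' processing notes. Pln and Nppa lay below all Δ306 libraries in all 16 too. In all, 11 of the 296 called genes found in that table (3.72%) separated these 16 from the 3 Δ306 libraries in the direction of KO against WT, beside 0.649% of the tested genes; the others of the 11 were AB124611, Fgf2, Pank3, Ppp6c, Rlim, Slc30a1, Spred1 and Ubxn7. Myh7, Myl3 and Tnnt2 lay low in most of the 16 too, with medians of 2.94, 0.544 and 2.92 CPM against 17.9 to 24.8, 4.77 to 8.21 and 13.2 to 21.1 CPM in Δ306. They did not separate fully, since their highest values, all in Δ225, were 74.2, 11.3 and 81.7 CPM. Mybpc3 was lower in Δ306 (8.47 to 11.1 CPM) than in WT (61.0 to 67.8 CPM). Casq2 was too, at 1.54 to 2.34 CPM in Δ306 and 19.8 to 29.2 CPM in WT, and it was at 38.7 to 67.1 CPM in Δ225. The part of the library set in the change of all these genes was not tested. Skeletal-muscle genes were not called lower. Yet of 11 tested, 10 had negative fold changes. Their median was −1.32, beside −1.28 for the heart-muscle list, so a negative median was not particular to heart muscle. Myh3, the embryonic myosin heavy chain, was at 5.67, 0.380 and 54.0 CPM in WT, which spans the KO range of 0.494 to 3.89 CPM. Myh8, the perinatal myosin heavy chain, rose from 17.4 to 19.1 CPM in WT to 30.2 to 48.8 CPM in KO (1.14, SE 0.16, adjusted p 0.0268). Markers of smooth muscle and pericytes had no call among 13 genes, with a median of −0.11: Acta2, smooth-muscle actin, was at 162 to 214 CPM in WT and 148 to 190 CPM in KO, and Tagln, transgelin, at 0.866 to 1.89 and 0.945 to 1.29 CPM.

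Blood-lineage lists had negative medians with few calls. Among 14 erythroid genes 12 were negative, the median was −0.46 and 2 were called lower (0.53% of all genes): Alas2, the first enzyme of haem synthesis in red cells, at 73.1, 65.8 and 55.6 CPM in WT and 40.5, 29.8, 25.2 and 31.7 CPM in KO (−1.03, SE 0.16, adjusted p 0.034), and Hba-a1, an alpha globin, at 726 to 995 and 317 to 472 CPM (−1.0, adjusted p 0.0352). Hba-a1 has a near-identical copy among which reads can be split, so its value is uncertain. The erythroid sums overlapped between the groups, at 4891 to 6509 CPM in WT and 3397 to 5099 CPM in KO. Of 12 megakaryocyte and platelet genes 11 were negative, with a median of −0.70 and 8 without overlap (19.7% of all genes did not overlap), and none was called with 7 libraries. Ppbp, a platelet chemokine, was at 3.30, 1.31 and 0.812 CPM in WT and 0.134, 0.432, 0.307 and 0.0859 CPM in KO (−2.90, adjusted p 0.062), and Pf4, another platelet chemokine, overlapped (−0.10, adjusted p 0.898). Ppbp, Gp9 and Treml1 were called lower without WT replicate 1 (adjusted p 0.0313, 0.0277 and 0.0291), all at under 1.5 CPM in WT replicates 2 and 3. The list's sum was 27.5 to 44.1 CPM in WT and 20.9 to 24.3 CPM in KO. Macrophage genes (13 tested, median −0.36) and haematopoietic progenitor genes (10 tested, median −0.28) had no call with 7 or 6 libraries. Csf1r, the macrophage growth factor receptor, was at 10.5 to 15.2 CPM in WT and 6.83 to 12.9 CPM in KO, Cx3cr1 at 7.16 to 10.4 and 4.14 to 6.77 CPM. Myb and Gfi1b, transcription factors of blood progenitors, had adjusted p of 0.686 and 0.20.

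Some genes of arterial endothelium and of Notch signalling rose. All 6 arterial genes had positive fold changes, with a median of 0.67 and 2 calls (1.27% of all genes were called higher), and 4 were called without WT replicate 1 (6.35% of all genes were called higher in that fit). Dll4, the Notch ligand of arterial and sprouting endothelium, was at 14.4, 15.8 and 11.7 CPM in WT and 30.8, 24.8, 24.5 and 22.0 CPM in KO (0.87, SE 0.15, adjusted p 0.0389). Hey1, a Notch target, was at 27.2, 41.7 and 35.5 CPM in WT and 53.9, 64.0, 53.7 and 61.0 CPM in KO (0.74, SE 0.14, adjusted p 0.0475). Hes1, a second target, was at 35.8 to 42.0 CPM in WT and 50.2 to 56.7 CPM in KO (0.48, adjusted p 0.0389). The 3 genes did not overlap between the groups. Gja4 and Gja5, connexins of arterial endothelium, were called without WT replicate 1 (adjusted p 0.032 and 0.0198), as was Nrarp, a Notch feedback gene (0.84, adjusted p 0.0287). Dll4 and Hey1 stand in both lists. Of 14 Notch genes 3 were called higher with 7 libraries and 4 of 14 with 6, and none lower. Of the 14, 9 were positive and 5 negative, the median was 0.08, and the sums overlapped, at 785 to 1030.2 CPM in WT and 832 to 973 CPM in KO. General endothelial genes did not follow: of 17, none was called, with a median of 0.03, and Pecam1 and Cdh5, adhesion proteins of all endothelium, were at 114 to 129 and 155 to 227 CPM in WT and 113 to 137 and 152 to 216 CPM in KO. Cxcr4, a chemokine receptor of vessels and germ cells, rose from 10.8 to 14.4 CPM in WT to 19.4 to 25.3 CPM in KO (0.73, adjusted p 0.0449), and Vcam1, a cell adhesion molecule, from 41.1 to 51.6 CPM to 62.4 to 84.4 CPM (0.65, adjusted p 0.0441).

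**Figure D4:**
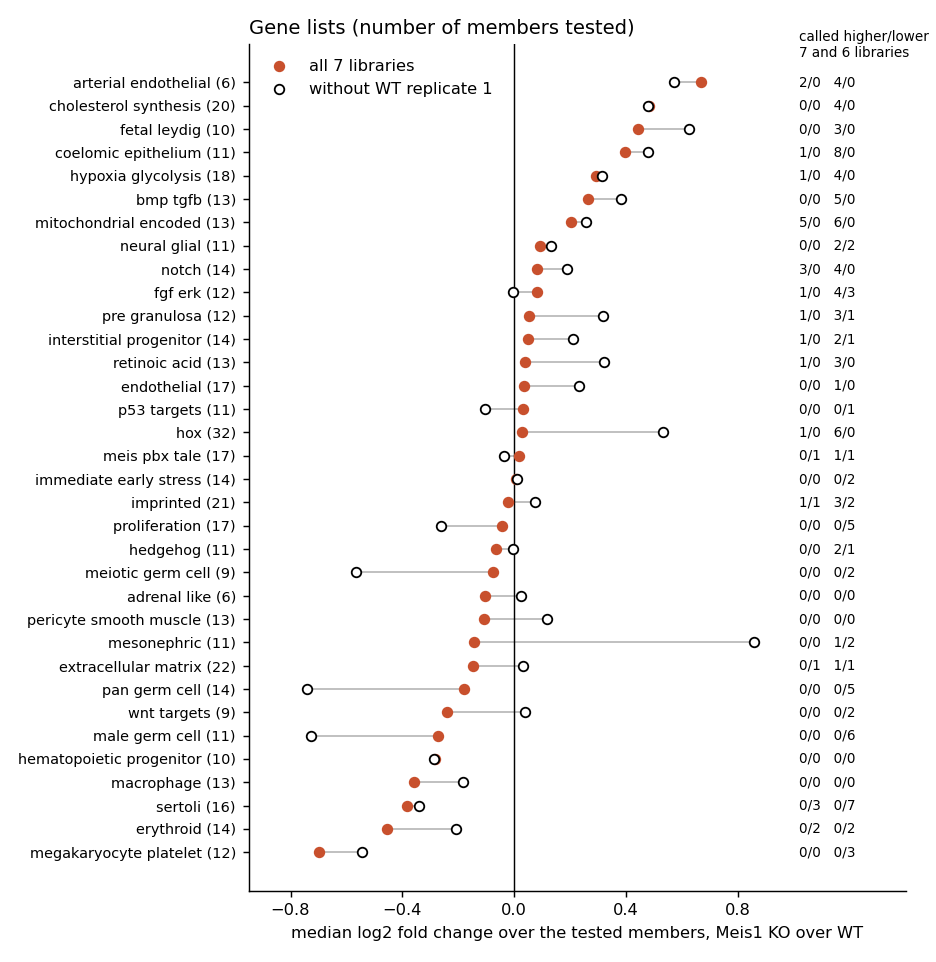
Median log2 fold change of Meis1 KO over WT over the tested members of 34 gene lists (the Y-linked list, at −2.05, is left out for scale), with 7 libraries (filled) and without WT replicate 1 (open), and at the right the members called higher and lower in each. Sertoli, platelet and arterial medians stay on their side of 0, whereas germ-cell lists move down and Hox genes up when WT replicate 1 is left out.

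Genes of the coelomic epithelium, the surface layer that gives rise to gonadal somatic cells, had mostly positive fold changes, with 1 call. Of 11, 10 were positive with a median of 0.40 (1.27% of all genes were called higher), and Gpm6a, a membrane glycoprotein, was called at 7.67 to 10.1 CPM in WT and 12.7 to 16.3 CPM in KO (0.69, SE 0.14, adjusted p 0.0494). Without WT replicate 1, 8 of 11 were called, all higher (6.35% of all genes): Gpm6a, Upk3b, Upk1b, Krt19, Krt7, Lhx9, Emx2 and Muc16. With the GC and length offset 6 were called without that library, and none of 11 with all 7 libraries (Gpm6a, adjusted p 0.164). Upk3b, a uroplakin of mesothelium, was at 65.2, 66.1 and 60.3 CPM in WT and 76.5 to 93.2 CPM in KO. Emx2, a transcription factor needed for the gonad to form, was at 56.9 to 63.5 CPM in WT and 73.7 to 80.2 CPM in KO. Both were without overlap, with log2 fold changes of 0.39 (Upk3b, adjusted p 0.0638) and 0.33 (Emx2, adjusted p 0.0521) on 7 libraries. The summed level was 397 to 448 CPM in WT and 499 to 601 CPM in KO. Lining cells of the neighbouring mesothelium carry the same genes, and how much of it each dissection kept was not tested.

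In the interstitium, Hes1, which the interstitial list shares with the Notch list, was the member called of 14 (median 0.05). Fetal Leydig genes were positive in 9 of 10, with a median of 0.44 and no call. Cyp11a1 and Cyp17a1, enzymes of steroid synthesis, were at 190 to 420 and 307 to 536 CPM in WT and at 288 to 589 and 482 to 736 CPM in KO. Both overlapped, and WT replicate 1 was the highest WT library for each. Insl3, the Leydig hormone of testis descent, was at 49.6, 27.5 and 27.1 CPM in WT and 69.1, 52, 61.0 and 55.2 CPM in KO (0.77, adjusted p 0.113). It was called without WT replicate 1 (1.12, adjusted p 0.00305), as were Hsd3b1 and Fdx1. These 3 of 10 Leydig genes were called higher in that fit, beside 6.35% of all genes. All 20 genes of cholesterol synthesis were positive, beside 8481 of all 16791 genes tested, with a median of 0.48 and none called. Without WT replicate 1, 4 were called higher (Mvk, Sc5d, Hsd17b7 and Stard4), beside 6.35% of all genes. Hmgcs1, an early enzyme of the pathway, was at 254 to 353 CPM in WT and 328 to 555 CPM in KO (0.54, adjusted p 0.175). Adrenal-like genes were not called (6 tested, median −0.10), with Cyp11b1 and Cyp21a1, enzymes of corticosteroid synthesis, at 0.401 to 2.30 and 1.01 to 2.73 CPM in WT and 0.472 to 0.940 and 1.27 to 3.41 CPM in KO. Hsd3b6, an isoform of 3-beta-hydroxysteroid dehydrogenase, fell from 17.8 to 25.6 CPM to 9.60 to 14.1 CPM (−1.01, adjusted p 0.0389). Sostdc1, an antagonist of BMP and Wnt ligands, fell from 23.1 to 30.8 CPM to 7.34 to 14.3 CPM (−1.41, adjusted p 0.0352). Adamts19, a secreted metalloprotease, fell from 11.7 to 17.5 CPM to 6.61 to 7.88 CPM (−0.99, adjusted p 0.034), while Foxl2 rose. In the table of Fgf9 deletions Adamts19, like Foxl2, was above WT (11.7 to 17.4 CPM) in Δ306 (55.6 to 89.3 CPM) and Δ93 (71.6 to 172 CPM). It overlapped WT in Δ104 (14.8 to 108 CPM) and Δ225 (10.1 to 26.1 CPM). Ptk2b, a kinase related to focal adhesion kinase, fell from 174 to 196 CPM to 87.7 to 120 CPM (−0.80, adjusted p 0.0263).

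Among signalling and patterning genes the called members were single. Over all genes tested, 1.27% were called higher and 0.53% lower. Hoxc8 was at 21.8, 21.1 and 19.5 CPM in WT and 45.8, 40.8, 37.2 and 35.3 CPM in KO (0.94, SE 0.11, adjusted p 0.0163), the one call of 32 Hox genes (median 0.03). Without WT replicate 1, 6 of 33 were called, all higher (6.35% of all genes in that fit): Hoxc8, Hoxa9, Hoxb4, Hoxc4, Hoxc5 and Hoxc9, and Hoxa9 stood at 18.8 CPM in WT replicate 1 against 2.7 and 4.12 CPM in the other WT libraries. Crabp1, a carrier of retinoic acid, was at 15.5, 9.19 and 8.48 CPM in WT and 34.4, 23.1, 25.7 and 31.0 CPM in KO (1.37, SE 0.23, adjusted p 0.0389), and was the 1 called of 13 retinoic-acid genes. Dhrs3, which lowers retinoic acid levels, was also called without WT replicate 1. Id1 and Id2, targets of BMP signalling, were at 38.9 to 51.2 and 58.2 to 70.6 CPM in WT and 58.8 to 103 and 73.5 to 108 CPM in KO (adjusted p 0.0675 and 0.137). Of 13 BMP genes 11 were positive, beside 8481 of all 16791 genes tested, and none was called. Id1, Id2, Id3, Id4 and Bmp2 were called higher without WT replicate 1, beside 6.35% of all genes in that fit. In the FGF and ERK list, Spred1, an inhibitor of this pathway, rose from 124 to 134 CPM to 163 to 169 CPM (0.35, SE 0.06, adjusted p 0.0408), the one call of 12. Fgf9, the testis-promoting ligand, was at 10.6, 9.80 and 10.2 CPM in WT and 12.3, 11.7, 12.1 and 11.2 CPM in KO and was not called (0.22, adjusted p 0.256). Fgf2, another ligand, rose from 29.4 to 31.9 CPM to 39.6 to 51.2 CPM (0.52, adjusted p 0.0475). Without WT replicate 1, Fgfr2, Fgfr3, Dusp6 and Spred1 were called higher and Fgfr1, Etv4 and Etv5 lower, so the list had no common direction. Of all genes in that fit, 6.35% were called higher and 6.56% lower. No hedgehog gene was called of 11 (median −0.06): Dhh is given above, and its receptor Ptch1 was at 295 to 351 CPM in WT and 273 to 340 CPM in KO. No Wnt target was called of 9 (median −0.24), with Axin2 at 37.1 to 42.3 and 41.3 to 47.5 CPM and Lef1 at 16.5 to 21.8 and 15.3 to 15.8 CPM. Of 18 genes of hypoxia and glycolysis 16 were positive (median 0.29) and Pgk1, phosphoglycerate kinase, was called, at 167 to 190 CPM in WT and 220 to 304 CPM in KO (0.58, adjusted p 0.0475). The rise of Pgk1 is uncertain, because the table of Fgf9 deletions holds the same WT libraries at 237 to 281 CPM. That range lies inside the KO range given here. Of 22 matrix genes 20 were negative (median −0.15) and Nid2, a basement-membrane linker, was called lower, at 226 to 260 and 144 to 184 CPM (−0.54, adjusted p 0.0429). Mesonephric (11 tested, median −0.14), neural and glial (11, median 0.09), p53-target (11, median 0.03) and immediate early genes (14, median 0.01) had no call with 7 libraries. Each had 1 to 4 without WT replicate 1, where 12.9% of all genes were called. In that fit the mesonephric median turned to 0.86, with 9 of 11 members positive, 1 called higher and 2 lower. Of these lists, Pax2, Pax8, Th, Cdkn1a, Mdm2, Fos and Fosb had adjusted p of 0.558 to 0.968.

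The germ-cell lists were among those whose medians and calls moved most when WT replicate 1 was left out. With 7 libraries none of 14 pan-germ-cell, 11 male germ-cell and 9 meiotic genes was called, and their medians were −0.18, −0.27 and −0.07. Without WT replicate 1 the medians were −0.74, −0.73 and −0.57, and 5, 6 and 2 members were called, all lower (6.56% of all genes were called lower). Pou5f1, the pluripotency factor of early germ cells, was at 3.57, 114 and 152 CPM in WT and 45.0, 88.2, 59.2 and 84.4 CPM in KO. The KO libraries thus lay between WT replicate 1 and the other WT libraries. Piwil2, a piRNA-pathway protein of male germ cells, was at 2.57, 44.3 and 51.6 CPM in WT and 20.6, 34, 23.5 and 29.4 CPM in KO (without WT replicate 1, log2 fold change −0.83, adjusted p 0.0193). Nanos2, the RNA-binding protein that sets male germ-cell fate, was at 0, 0.465 and 1.15 CPM in WT and 0.129 to 0.336 CPM in KO, at the low end of detection. Its log2 fold change was −1.35 with 7 libraries (adjusted p 0.473) and −1.92 without WT replicate 1 (adjusted p 0.0365). The broad germ-cell genes Ddx4 and Dazl, both RNA regulators, and the synaptonemal genes Sycp1 and Sycp2 were not called with either set, and Ddx4 was at 4.59, 87.5 and 147 CPM in WT and 49.7, 102, 59.2 and 73.3 CPM in KO. Utf1, Dnd1, Sox2 and Sall4 were the other pan-germ-cell genes called lower without WT replicate 1, at log2 fold changes of −0.94 to −0.76. These calls rest on 2 WT libraries. Mki67 and Top2a, genes of dividing cells, were at 573 to 695 and 494 to 786 CPM in WT and 437 to 524 and 591 to 707 CPM in KO. Of 17 cell-cycle genes none was called with 7 libraries and 5 were called lower without WT replicate 1 (Mki67, Plk1, Mcm2, Mcm3 and Mcm6), and the part of germ cells in this was not tested.

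Y-linked genes were lower in KO although both groups are labelled XY. Uty was at 18.3, 15.4 and 23.4 CPM in WT and 1.11, 0.983, 3.39 and 1.37 CPM in KO, without overlap (−3.46, SE 0.42, adjusted p 0.0194). The table of Fgf9 deletions holds Uty at 14.8 to 22.6 CPM in the same WT libraries, and at 0.107 to 3.06 CPM in Δ306 and 0 to 9.99 CPM in the 16 others, so every mutant library of the series was below WT. Ddx3y was at 14.9, 9.04 and 39.8 CPM in WT and 7.24, 2.16, 7.29 and 2.40 CPM in KO, Eif2s3y at 0.459, 7.92 and 14.1 and 1.43, 0.312, 3.82 and 2.13 CPM, and Kdm5d at 0.0540, 0.866 and 4.23 and 0.245, 0.216, 1.32 and 0.0429 CPM. Ddx3y and Eif2s3y were called lower without WT replicate 1 (adjusted p 0.036 and 0.0303). The 4 genes summed to 33.7, 33.3 and 81.6 CPM in WT and 3.67 to 15.8 CPM in KO. With the low Xist counts, the testis-determining gene Sry was at 8 to 12 counts in WT and 4 to 18 in KO, so no KO library lacked Y transcripts. On the X chromosome 31 of 601 tested genes were called (5.16%), 28 higher and 3 lower, the largest share among chromosomes with more than 20 genes tested; the autosomes ranged from 0.831 to 2.86%. Near the targeted gene, 0 of 3 genes within 1 Mb of Meis1 were called and 2 of 42 within 5 Mb (4.76%), Sec61g and C1d, both higher.

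Imprinted genes were not moved as a group (21 tested, median −0.02), but H19, an imprinted non-coding RNA, fell from 2344, 17.3 and 2831 CPM in WT to 9.78, 12.5, 14.4 and 12.6 CPM in KO (−7.13, SE 1.31, adjusted p 0.0441). WT replicate 2 lay close to the KO libraries, so the size of this change rests on WT replicates 1 and 3. Impact, an imprinted regulator of translation, rose from 42.3 to 45.6 CPM to 56.5 to 60 CPM (0.40, adjusted p 0.034). 5 of 13 genes of the mitochondrial genome were called higher (1.27% of all genes were called higher). Among them were 4 of the 10 largest rises at a mean of at least 1 CPM (mt-Nd3, mt-Co3, mt-Atp6 and mt-Co2). mt-Co3 was at 1.03 to 3.23 CPM in WT and 13.2 to 21.0 CPM in KO, but in the table of Fgf9 deletions its WT mean was 1005 times as high, so these values are uncertain: mitochondrial genes have nuclear copies, between which counting can split or drop reads. The same holds for Gm15013, Gm26623, Gm12355, Rpl36a-ps1 and Gm6594 among the rises, which are pseudogenes or unnamed transcripts, and for Gm21738 and Gm10800 among the falls. AB124611 fell from 3.14 to 7.13 CPM to 0.767 to 1.44 CPM (−2.14, adjusted p 0.034). Rps29 and Rpl39, genes of short ribosomal proteins, rose from 141 to 226 and 118 to 167 CPM to 368 to 456 and 237 to 299 CPM (1.11 and 0.78, adjusted p 0.0323 and 0.0428), and have many processed copies, so their values are uncertain.

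Called genes differed in base composition. The median GC content was 44.1% for those higher and 53.6% for those lower in KO, beside 49.9% over all genes tested, and the fold change correlated with GC content across genes at Spearman's rho of −0.24. With an offset for GC content and transcript length in each library, 143 genes were called (0.853%), 76 higher and 67 lower, and 116 of the 303 kept their call. Of the 80 with at least 1 on the log2 scale, 49 did. Foxl2, Pdyn, Sct, Sox10, Dll4, Alas2, Myh8, Hoxc8, Sostdc1, Adamts19, Ptk2b, Lox and Uty kept theirs, at adjusted p of 0.000678 to 0.0428. The 3 heart genes given above, Mro, Col9a3, Hey1, Hes1, Gpm6a, Crabp1, Spred1, Nid2, H19, Pgk1, Impact, Fgf2, Cxcr4 and Vcam1 did not, at 0.0512 to 0.164, though without WT replicate 1 and with the same offset all of these but Spred1 and Gpm6a were called again (0.0503 and 0.0502 for those 2). In the authors' deposited table of the same comparison, 1397 genes had an adjusted p under 0.05, 805 higher and 592 lower, and all 294 of the genes called here that had an adjusted p there were among them with the same sign.

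**Figure D5:**
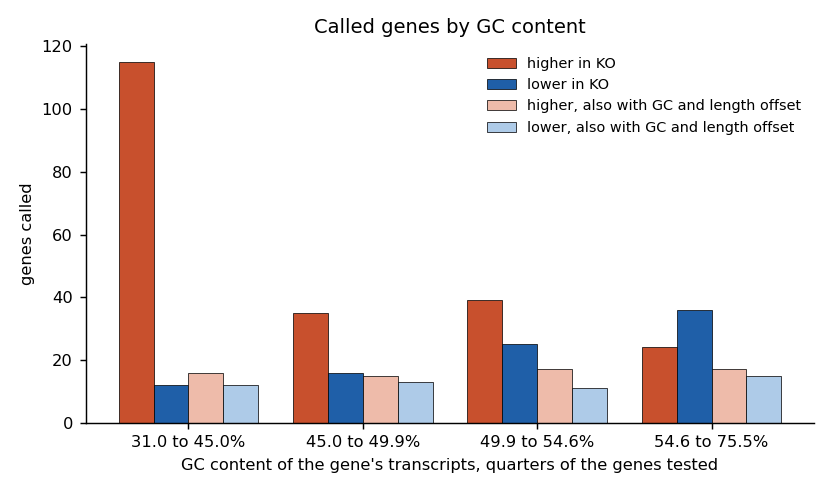
Number of genes called higher (red) and lower (blue) in Meis1 KO in 4 equal bins of the genes tested, ordered by GC content, with the calls kept under the GC and length offset in pale colours. The lowest bin holds 115 of the higher calls and 16 after the offset, while the highest bin holds 36 of the lower calls and 15 after it.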

How the data were processed

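RNA from E13.5 XY mouse gonads was measured by poly(A) RNA-seq with a strand-preserving kit, per the labels' protocols, in 3 WT and 4 Meis1 KO libraries. The authors deposited whole-number read counts for 31053 genes, with reads aligned to mm10 by STAR (2.7.10a for WT), per the submitters' processing notes. The annotation was not given in the sources used here. Symbols came from the GRCm38 gene table for 30934 identifiers. A second deposited table of counts for Fgf9 deletions (57186 genes) was used for values set side by side, never in a test. From the authors' deposited table of the same comparison, the log2 fold changes and adjusted p-values were read for counts of calls.

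Genes were filtered with filterByExpr, normalized by TMM and tested with edgeR's quasi-likelihood test (edgeR 4.0.16, R 4.3.3, limma 3.58.1) on the 7 libraries without covariates, leaving 5 residual degrees of freedom. P-values were adjusted by Benjamini-Hochberg over 16791 genes, and 3239 had an unadjusted p under 0.05. CPM values use TMM-scaled library sizes. Depth was 35468633 to 51732897 counts per library, and its counting error was not separated from other spread. No pair of libraries was a duplicate.

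Named genes were Meis1, the 10 largest rises and falls among called genes without overlap and with a mean of at least 1 CPM, the same for calls kept without WT replicate 1, and of each of 35 lists up to 6 called members or, with none, the first 2 tested. The members and lists were chosen with earlier results of these data known, and the 2 muscle lists and some further genes were added after values were seen. Alternatives were DESeq2 1.42.0, RLE or no composition scaling, other count filters, an adjusted p under 0.01, a replicate block and each library left out. An offset for GC content and transcript length (natural splines with 5 degrees of freedom per library), with and without WT replicate 1, was added after seeing the data. The test was checked on simulated counts. All 7 sample columns of the table were mapped, and the libraries of Fgf9 deletions were otherwise not analysed here. A few genes that the rule would name are not reported here.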

Additional observations from a re-analysis of the deposited data

Results flagged for a closer look

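Among 141 values examined in the 4 KO libraries, 7 had 1 library further from the other 3 than Dixon's 95% critical ratio allows. Chance alone gives this for about 1 in 20 groups, so about this many were to be found by chance. That rate concerns the number of such values and not their size. Grb10 stood furthest apart, with 605 counts in KO replicate 1 and 37225 to 50319 in the other KO libraries.

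Uty was at 3.39 CPM in KO replicate 3 and at 0.983 to 1.37 CPM in the other KO libraries, all below WT. Mro was at 51.9 CPM in KO replicate 1 and 46.2 to 46.4 CPM in the others. Rpl39 was at 299.4 CPM in KO replicate 2 and 237 to 247 CPM in the others. Cyp21a1 was at 3.41 CPM in KO replicate 1 and 1.27 to 1.33 CPM in the others. Grb10, an imprinted growth inhibitor, was at 13.48 CPM in KO replicate 1 and 893 to 965 CPM in the other KO libraries. The summed level of neural and glial genes was 305.2 CPM in KO replicate 2 and 319.8 to 321.1 CPM in the others. The summed level of immediate early genes was 514.9 CPM in KO replicate 1 and 486.6 to 490.2 CPM in the others. What sets these libraries apart was not tested.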

How the results depend on the processing

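Every setting gave Meis1 as called lower (log2 fold change −7.78 to −7.18 over the fits with 1 library left out). RLE scaling, no scaling, no filter and a stricter filter gave 233 to 327 calls in place of 303, of which 233 to 319 held without WT replicate 1. DESeq2 called 1439 genes (822 higher, 617 lower), 1252 of which held without WT replicate 1, and shared 296 of the 303. An adjusted p under 0.01 left 16 (6 higher, 10 lower), and all 16 held without WT replicate 1. The GC and length offset left 143 (76 higher, 67 lower), and with WT replicate 1 left out as well it gave 2119 (921 higher, 1198 lower). Over the fits with 1 library left out, calls ranged from 15 to 2204, those higher from 5 to 1084 and those lower from 9 to 1120. The cause of these differences was not tested, and the fits with 2 WT libraries rest on the spread of 6.

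Fitting the replicate number as a block left 32 calls (18 higher, 14 lower), all 32 held without WT replicate 1. The numbers do not pair the samples: deviations of same-numbered libraries correlated at 0.52, 0.36 and −0.20, and the WT library numbered 3 correlated best with number 2.

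No called gene changed sign, and 56 of the values of uncalled genes did. These log2 fold changes were Pecam1 −0.0017 with DESeq2 and Pecam1 −0.0037 with RLE scaling. With the replicate block they were Piwil2 0.28, Sycp2 0.073, Ddx4 0.58, Cdkn1a 0.012, Dazl 0.87. With the GC and length offset they were Mdm2 −0.016, Cdh5 0.031, Sycp1 −0.13, and with WT replicate 1 also left out Pax2 0.68, Tagln 0.11, Pax8 0.095, Pf4 0.037, Cyp21a1 0.21, Mdm2 −0.14, Cdh5 0.18, Sycp1 −0.64. Over the fits with 1 library left out, the genes that changed sign ranged as follows: Acta2 −0.19 to 0.012, Cdh5 −0.16 to 0.13, Cdkn1a −0.11 to 0.13, Cyp21a1 −0.61 to 0.18, Dazl −0.60 to 0.68, Ddx4 −0.72 to 0.62, Fos −0.18 to 0.19, Fosb −0.0035 to 0.59, Grb10 −0.41 to 0.20, Mdm2 −0.13 to 0.17, Pax2 −1.36 to 0.62, Pax8 −0.32 to 0.055, Pecam1 −0.038 to 0.061, Pf4 −0.31 to 0.26, Piwil2 −0.83 to 0.19, Sycp1 −0.49 to 0.67, Sycp2 −0.71 to 0.38, Tagln −0.49 to 0.12, Th −0.97 to 0.095, Top2a −0.27 to 0.024. The cause was not tested.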
